A study of Homo sapiens with 6 samples.

Results

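The centromere and kinetochore genes examined here encode the proteins that mark the centromere of a chromosome and join it to spindle microtubules in mitosis. Members were taken by exact symbol from a fixed list of 39 genes, and 35 of them were found among the 27678 named loci of the 41656 loci in the table. MCF10A cells, a non-tumorigenic line derived from human breast epithelium, received 30 nM of a non-targeting siRNA (siNT) or of siRNAs against the transcription factor PAX9 (siPAX9) for 72 hours, with 3 samples in each group. Poly(A)+ RNA was sequenced, and the authors deposited 1 FPKM per locus and group, a level scaled to transcript length and to the mapped reads. Since there is no value per sample, no spread between replicates is known, and no difference below was tested.

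CENPA, CENPE and the other inner and outer proteins are built up in layers. The histone variant CENP-A replaces histone H3 in centromeric nucleosomes and is loaded there by HJURP and the MIS18 complex. The constitutive centromere-associated network sits on this chromatin through the cell cycle and carries the KNL1, MIS12 and NDC80 complexes, which bind microtubules. The corona, the SKA complex, the chromosomal passengers and the shugoshins then govern capture, attachment strength and sister chromatid cohesion. Many of these genes, though not all, are known to be transcribed mainly in late S phase, G2 and mitosis of dividing cells.

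The targeted gene checked the labels first. PAX9 was at 2.80 FPKM after siNT and at 0.325 after siPAX9 (8.60-fold lower), at a locus that overlaps the loci of SLC25A21, SLC25A21-AS1 and MIR4503. The cell type label was checked against 8 epithelial markers chosen for this line of basal-like breast epithelium, such as KRT5 and TP63. All 8 had an FPKM of at least 1 in both groups, summing to 3906 in siNT and 5200 in siPAX9, with KRT5 and KRT17 making up most of each sum. CDH1 and KRT6A were 2.74-fold and 2.61-fold higher in siPAX9, while TP63 was lower there (35.4 and 25.3 FPKM), as was EGFR (64.3 and 58.1 FPKM). The hormone receptor genes ESR1 and PGR were at 0.317 or less. Among the markers of other cell types, DCN was at 5.85 and 37.9 and CD68 at 3.38 and 3.77, with COL1A2, COL3A1, PDGFRA, PTPRC, CD3E, VWF and CDH5 at 0.0922 or less. The part of these marker differences in the results below was not tested.

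Almost all members were lower in siPAX9. Of the 35, 34 had a lower FPKM in siPAX9 than in siNT, and 21 (60.0%) were at least 2-fold lower. None was at least 2-fold higher. Among the 12595 named loci with a mean FPKM of at least 1, 55.2% were lower by any amount, 6.91% at least 2-fold lower and 6.75% at least 2-fold higher. Of these loci, 10224 had a mean FPKM of 30.4 or less, the highest mean of any member. Among them, 6.93% were at least 2-fold lower. The median log2 ratio of siPAX9 over siNT was -1.23 for the members and -0.07 for the 12595 loci. Summed over the 35 members, the FPKM was 315 in siNT and 157 in siPAX9, a 2.01-fold difference. In such bulk RNA, fewer cells of a kind (here, cells in G2 or mitosis) and less RNA per cell cannot be told apart.

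**Figure D1:**
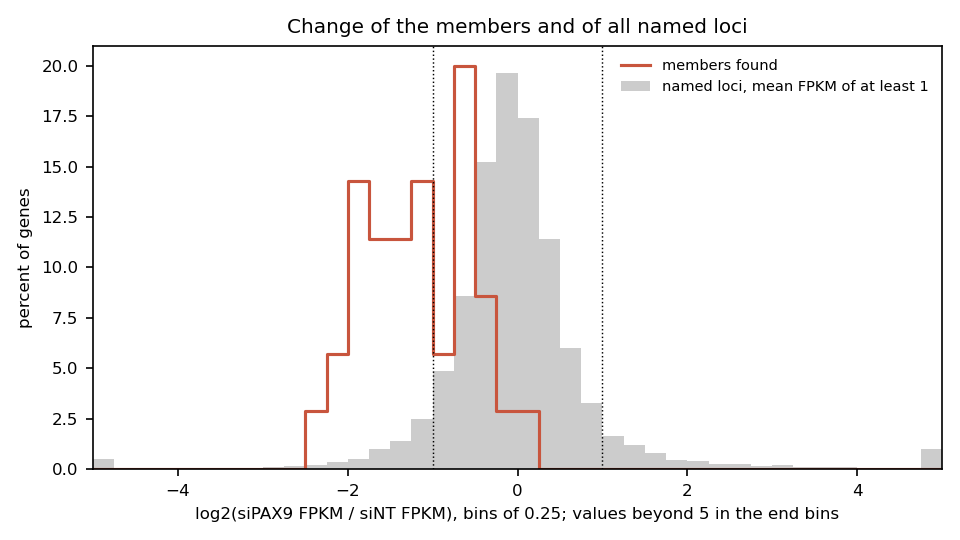
Percent of genes (vertical axis) by log2 ratio of siPAX9 FPKM over siNT FPKM (horizontal axis, bins of 0.25), for the 12595 named loci with a mean FPKM of at least 1 (grey bars) and the 35 members found (red line). Dotted lines mark 2-fold. The members lie within the span of the grey bars, mostly left of their centre, with 21 beyond the left dotted line and none beyond the right one.

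The levels were low to moderate. In siNT the members ranged from 1.08 (CENPP) to 36.3 FPKM (PMF1), with a median of 7.32, and 8 were under 5 FPKM. In siPAX9 they ranged from 0.697 (CENPP) to 24.4 (PMF1), with a median of 3.06, and 27 were under 5 FPKM. The locus of PMF1 also carries BGLAP and a read-through transcript, so its level is not that of PMF1 alone. Since FPKM is scaled to length, levels can be set side by side between genes. At loci shared with or overlapping other genes, such comparisons are less certain. CENPP, at a mean of 0.887 FPKM, was the 1 member of the 35 that missed a mean of 1.

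**Figure D2:**
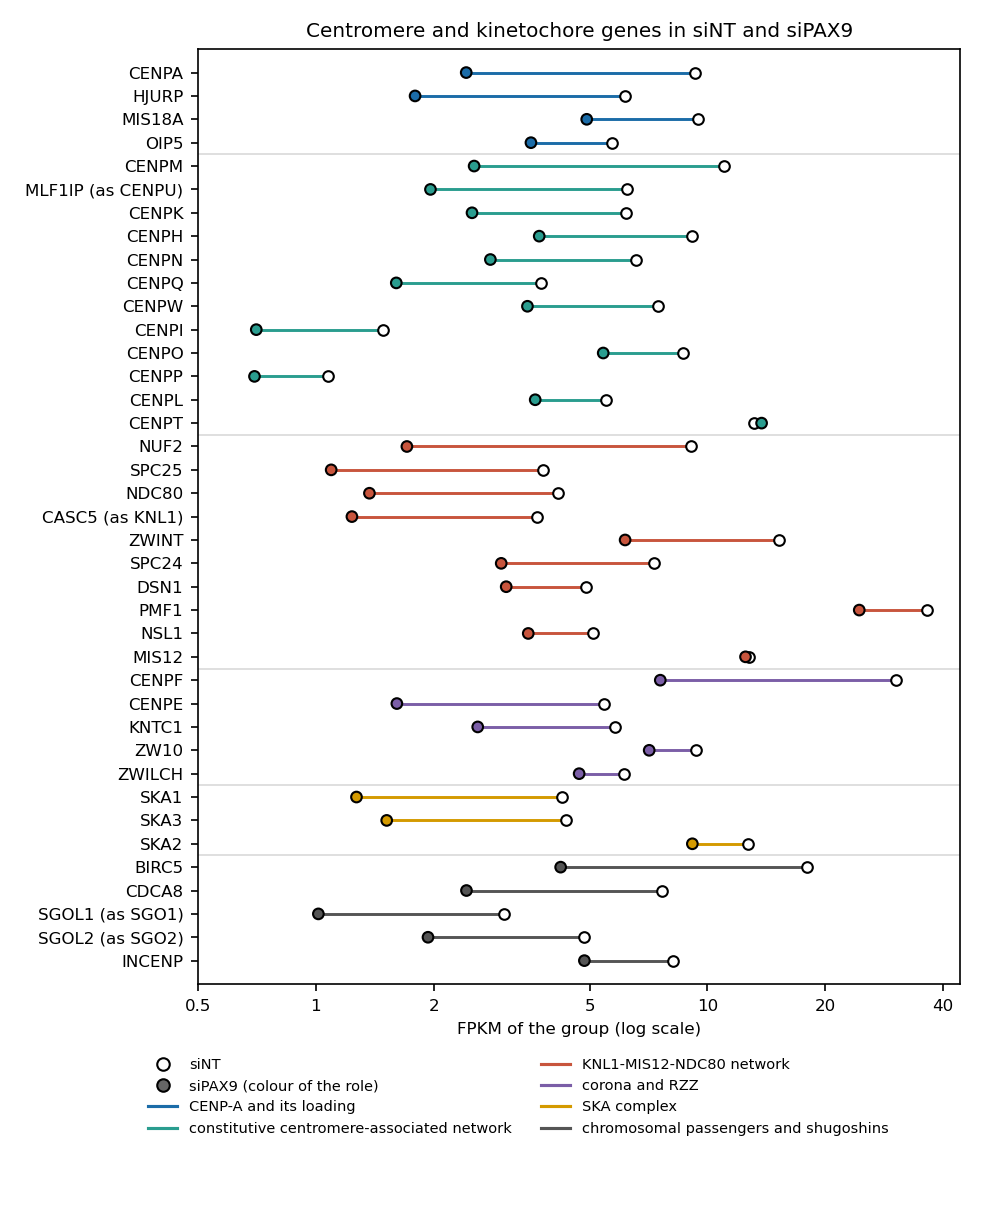
FPKM of each of the 39 listed genes in siNT (open points) and siPAX9 (filled points) on a log axis, 1 point per group, with genes grouped by role (colour) and sorted by ratio within a role. CENPT is the one gene whose filled point lies to the right, and the points of MIS12 nearly coincide.

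At the centromeric chromatin itself, CENP-A and its chaperone were the members with the larger differences. CENPA (UCSC hg19, chr2:27008882-27017455) was at 9.28 FPKM in siNT and 2.42 in siPAX9, 3.83-fold lower. HJURP, which binds CENP-A with histone H4 and deposits it at centromeres, went from 6.15 to 1.79, a 3.43-fold lower level. The licensing factors that prepare the site for HJURP differed less. MIS18A was at 9.43 and 4.92 FPKM (1.92-fold lower) and OIP5, also called MIS18-beta, at 5.70 and 3.54 (1.61-fold lower). All 4 genes of this role were thus lower in siPAX9, and 2 of them reached 2-fold.

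In the constitutive network, 7 of the 11 members found were at least 2-fold lower, with a median log2 ratio of -1.11. The subcomplex of CENP-H, CENP-I, CENP-K and CENP-M, which links CENP-A nucleosomes to the rest of the network, was lower in siPAX9 in every subunit. CENPM (chr22:42334725-42343168) had the second largest difference of all members, with 11.0 FPKM in siNT and 2.54 in siPAX9, 4.35-fold lower. CENPH was at 9.12 and 3.72 FPKM and CENPK at 6.19 and 2.50, which are log2 ratios of -1.29 and -1.30. CENPI was the least abundant of the group, at 1.48 and 0.704 FPKM, a log2 ratio of -1.07. So these 4 genes shared a direction and a size of at least 2-fold, while their levels in siNT spanned 7.45-fold.

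CENPL and CENPN encode partners, and CENP-N reads the CENP-A nucleosome directly. CENPN was at 6.58 FPKM in siNT and 2.79 in siPAX9 (2.36-fold lower), and CENPL at 5.51 and 3.63 (1.52-fold lower). The subunits that join as CENP-O, CENP-P, CENP-Q, CENP-U and CENP-R also differed in size. CENPQ was at 3.77 and 1.60 FPKM (2.35-fold lower), CENPO at 8.68 and 5.42 (1.60-fold) and CENPP at 1.08 and 0.697 (1.54-fold). CENP-T and CENP-W form a histone-fold pair, and CENP-T recruits the NDC80 complex. CENPW was at 7.48 FPKM in siNT and 3.47 in siPAX9, 2.16-fold lower. CENPT (chr16:67862059-67906469) was at 13.2 and 13.7 FPKM, a log2 ratio of 0.06, and was the only member with the higher value in siPAX9. The level at the CENPT locus therefore stood at 1.76 times that of CENPW in siNT and at 3.96 times in siPAX9. The CENPT locus overlaps those of NUTF2 and THAP11. The higher of these had a mean of 30.6 FPKM, beside 13.5 for CENPT.

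The microtubule-binding network held both the largest and the smallest difference among the 35 members, with 5 of its 9 genes at least 2-fold lower. All 4 subunits of the NDC80 complex, the rod that grips the microtubule, were at least 2-fold lower in siPAX9. NUF2 (chr1:163291723-163325553) had the largest difference of the 35 members, with 9.08 FPKM in siNT and 1.71 in siPAX9, 5.32-fold lower. SPC25 went from 3.81 to 1.09 FPKM (3.48-fold), NDC80 from 4.15 to 1.37 (3.03-fold) and SPC24 from 7.32 to 2.97 (2.46-fold). The highest and lowest of these 4 genes were 2.38-fold apart in siNT and 2.72-fold apart in siPAX9. ZWINT, a partner of KNL1 in checkpoint signalling, was at 15.2 and 6.16 FPKM, 2.47-fold lower.

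The MIS12 complex, which anchors NDC80 and KNL1 to the inner layer, was lower by less. None of its 4 genes reached 2-fold. MIS12 (chr17:5389694-5394161) was at 12.8 FPKM in siNT and 12.5 in siPAX9, a log2 ratio of -0.03. DSN1 was at 4.89 and 3.06 FPKM, NSL1 at 5.11 and 3.49, and the PMF1 locus at 36.3 and 24.4, with log2 ratios of -0.68, -0.55 and -0.57. The highest log2 ratio of the NDC80 complex, -1.30 for SPC24, was thus below the lowest of the MIS12 complex, -0.68 for DSN1.

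**Figure D3:**
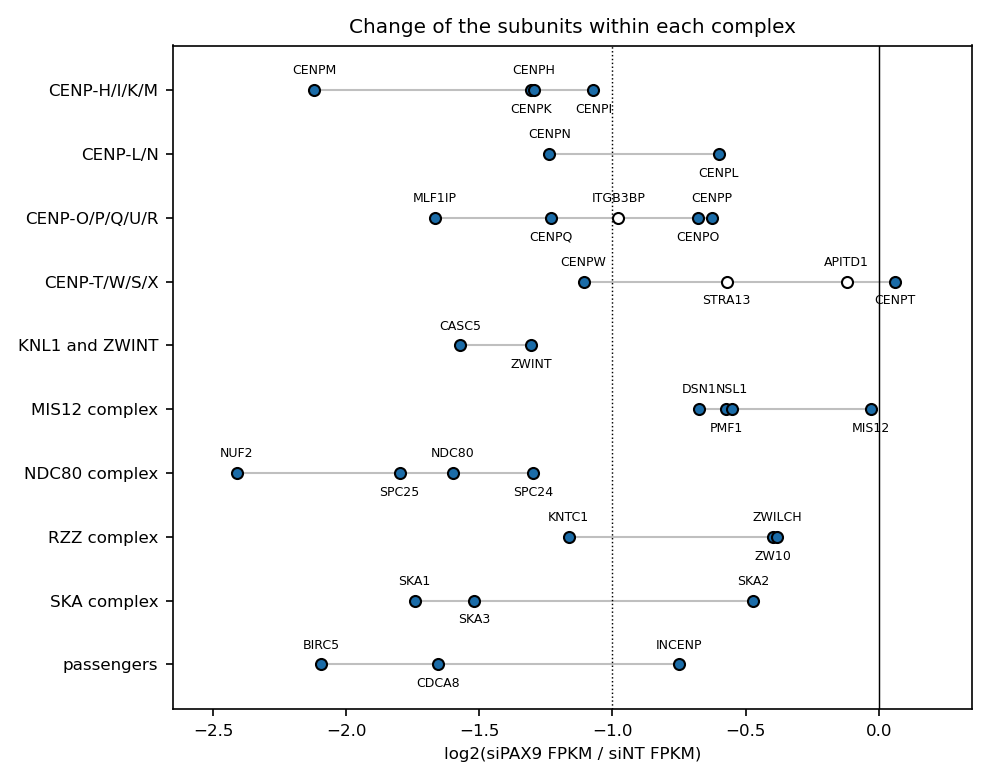
Log2 ratio of siPAX9 FPKM over siNT FPKM (horizontal axis) for the subunits of 10 complexes or pairs (rows). Filled points are listed members, including MLF1IP and CASC5 under their current symbols, and open points are partners outside the list; the dotted line marks 2-fold lower. The NDC80 genes lie left of the dotted line and the MIS12 genes right of it, SKA2 lies right of SKA1 and SKA3, and KNTC1 lies left of ZW10 and ZWILCH.

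In the corona, the fibrous outer layer that forms before microtubules attach, the kinesin gene CENPE was at 5.45 FPKM in siNT and 1.61 in siPAX9, 3.39-fold lower. CENPF, whose protein binds microtubules and dynein regulators, was the second most abundant member in siNT at 30.3 FPKM and stood at 7.58 in siPAX9, just short of 4-fold lower. The RZZ complex of ROD, ZW10 and Zwilch brings dynein and the MAD1 checkpoint protein to the kinetochore. KNTC1, which encodes ROD, was at 5.80 and 2.59 FPKM (2.24-fold lower). ZW10, which also acts in membrane traffic between the endoplasmic reticulum and the Golgi, was at 9.34 and 7.10 (1.32-fold), and ZWILCH at 6.13 and 4.70 (1.30-fold). The spread of levels between the 3 genes went from 1.61-fold in siNT to 2.74-fold in siPAX9.

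The SKA complex, which helps NDC80 follow shrinking microtubule ends, also held both small and larger differences. SKA1 was at 4.25 FPKM in siNT and 1.27 in siPAX9 (3.35-fold lower), and SKA3 at 4.35 and 1.52 (2.87-fold lower). SKA2 was at 12.7 and 9.15 FPKM, 1.39-fold lower. The highest of the 3 genes was 2.99 times the lowest in siNT and 7.21 times in siPAX9.

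Of the chromosomal passengers, which correct wrong attachments together with the kinase Aurora B, BIRC5 had the third largest difference of the 35 members. BIRC5 encodes survivin (chr17:76210277-76221716) and was at 18.0 FPKM in siNT and 4.22 in siPAX9, 4.27-fold lower. CDCA8, the gene for borealin, was at 7.64 and 2.42 (3.15-fold lower). INCENP, the scaffold that binds and activates Aurora B, was at 8.16 and 4.85 (1.68-fold lower).

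In size, 11 of the 35 members were at least 3-fold lower, against 2.55% of the 12595 named loci, and 10 were between 2- and 3-fold lower. The member nearest to 2-fold on the inner side was CENPI (2.10-fold lower) and the nearest on the outer side was MIS18A (1.92-fold lower). At 1.5-fold, 28 members were lower, against 16.7% of the named loci, and the 7 that were not were PMF1, NSL1, SKA2, ZW10, ZWILCH, MIS12 and CENPT. At 4-fold, 3 members were lower, NUF2, CENPM and BIRC5, against 1.5% of the named loci. The members lay on 19 chromosomes, and the 6 on chromosome 1 ran from a log2 ratio of -2.41 (NUF2) to -0.55 (NSL1). Across the 35 members, Spearman's rho of the log2 ratio was 0.21 with the mean FPKM and 0.31 with the length of the locus, given as descriptions across genes that share both groups of libraries.

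The 4 members not found by their listed symbols, MLF1IP, CASC5, SGOL1 and SGOL2, stood in the table under the current symbols CENPU, KNL1, SGO1 and SGO2 and were looked up after the others had been seen. CENP-U belongs with CENP-O, KNL1 is the platform for checkpoint proteins, and the shugoshins protect centromeric cohesion. CENPU was at 6.23 FPKM in siNT and 1.96 in siPAX9 (3.18-fold lower), and KNL1 at 3.68 and 1.24 (2.97-fold). SGO1 was at 3.03 and 1.01 FPKM (2.98-fold lower) and SGO2 at 4.85 and 1.93 (2.51-fold). The loci of CENPU and SGO1 overlap PRIMPOL and SGO1-AS1. With them, 25 of 39 genes were at least 2-fold lower and the median log2 ratio was -1.29.

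Loci that overlap other genes need care, since how reads from shared stretches were assigned is not stated. The loci of 8 members overlap another named locus, namely CENPN, CENPO, CENPP, CENPT, PMF1, ZWILCH, SKA2 and SKA3. The locus of CENPP, 373 kb long, spans 8 others. CENPN, CENPO, CENPP, CENPT and SKA3 overlap a locus with a higher mean FPKM than their own, and PMF1, ZWILCH and SKA2 do not. The median log2 ratio of these 8 members was -0.60, with 2 of the 8 at least 2-fold lower. Over the other 27 it was -1.30, with 19 at least 2-fold lower. The part of the overlaps in the smaller differences was not tested.

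Sequences upstream of the members were then searched for motifs that are known to sit in promoters of cell cycle genes. RefSeq promoter windows (GRCh38.p14, 250 bases before to 50 after a transcription start) were held for 29 of the 35 members, and not for CENPH, CENPM, CENPL, MIS18A, KNTC1 and BIRC5. The cell cycle genes homology region (CHR), bound by the MuvB complexes that repress or activate G2 and mitotic genes, was searched as TTTGAA or TTTAAA. The CCAAT box, bound by NF-Y, was searched as CCAAT, and E2F sites as TTTCCCGC, TTTGGCGC, TTTCGCGC or TTTGCCGC, in every case on both strands. Shown first are the 150 bases before the start of 5 members that were at least 3-fold lower and hold a CHR match there, with CHR, CCAAT and E2F matches in capitals.
CENPA (chr2:26785906-26786055, plus strand): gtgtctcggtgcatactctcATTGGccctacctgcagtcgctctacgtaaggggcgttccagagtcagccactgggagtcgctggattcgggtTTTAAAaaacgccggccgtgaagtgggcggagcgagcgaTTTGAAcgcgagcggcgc
HJURP (chr2:233854536-233854685, minus strand): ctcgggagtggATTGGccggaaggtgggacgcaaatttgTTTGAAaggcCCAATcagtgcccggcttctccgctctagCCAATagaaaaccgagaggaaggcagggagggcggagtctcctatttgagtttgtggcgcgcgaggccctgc
CDCA8 (chr1:37692366-37692515, plus strand): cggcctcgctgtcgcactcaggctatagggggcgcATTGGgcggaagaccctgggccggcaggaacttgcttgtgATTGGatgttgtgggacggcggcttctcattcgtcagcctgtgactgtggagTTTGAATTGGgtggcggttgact
CENPF (chr1:214603045-214603194, plus strand): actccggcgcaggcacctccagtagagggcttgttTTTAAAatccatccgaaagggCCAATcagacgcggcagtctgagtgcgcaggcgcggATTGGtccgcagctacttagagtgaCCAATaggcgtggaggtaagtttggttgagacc
CENPE (chr4:103198344-103198493, minus strand): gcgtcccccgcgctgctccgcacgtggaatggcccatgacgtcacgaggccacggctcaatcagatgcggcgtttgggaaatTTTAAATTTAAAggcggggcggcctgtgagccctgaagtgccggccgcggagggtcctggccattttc
In CDCA8 the CHR match and a reversed CCAAT share 1 base, and in CENPE 2 CHR matches abut. The stretches shown are picked examples, and other members went the other way. CENPI, CENPK, CENPQ, CENPW and SPC24 were at least 2-fold lower without a CHR match in the window. CENPO, ZW10 and INCENP held a match and were less than 2-fold lower. For contrast, the same stretch follows for SKA2, which has CCAAT matches without a CHR match, and for CENPT, which has none of the 3 motifs. SKA2 lies 59 bases from PRR11, which had a log2 ratio of -2.52.
SKA2 (chr17:59155187-59155336, minus strand): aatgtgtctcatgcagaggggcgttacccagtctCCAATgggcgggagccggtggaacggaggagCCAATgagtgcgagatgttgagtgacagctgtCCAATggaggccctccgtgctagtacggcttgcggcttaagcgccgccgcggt
CENPT (chr16:67847694-67847843, minus strand): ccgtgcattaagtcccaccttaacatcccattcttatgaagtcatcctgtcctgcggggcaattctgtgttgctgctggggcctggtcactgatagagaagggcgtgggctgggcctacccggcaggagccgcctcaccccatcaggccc

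A CHR match stood in the window of 15 of the 29 members (51.7%), against 24.0% of the 35116 windows in the table and 21.6% of the 9480 symbols with a window at named loci with a mean FPKM of at least 1. It stood in 12 of the 17 members that were at least 2-fold lower and in 3 of the other 12. Members with a match had a median log2 ratio of -1.66 and those without it -0.65. Counted from the start, with no base 0, matches began at position 17 in NUF2, 35 in SKA1, -23 in CDCA8 and both -57 and -18 in CENPA. In NDC80, SKA3 and SPC25 a match began at position -3 and so ran across the start. Within 50 bases on either side, a window chosen after these positions were seen, 12 of 29 members (41.4%) had a match against 7.62% of all windows and 6.91% of the expressed symbols. These counts are descriptions of letters in a window and were not tested.

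CCAAT was held by 19 of the 29 members (65.5%), against 34.6% of all windows and 43.6% of the expressed symbols. It stood in 11 of the 17 members at least 2-fold lower and in 8 of the other 12, and the median log2 ratio was -1.23 with it and -1.30 without it. Within 50 bases of the start it stood in 4 of the 17 and in 5 of the other 12, with medians of -0.75 and -1.27. An E2F match stood in 3 of 29 members, CENPA, OIP5 and MIS12 (10.3%), against 3.31% of all windows and 6.81% of the expressed symbols. Of the PAX9-binding sequences named in the study, 2 were searched. GCGTGACCA had 1 match, in CENPE on the reverse strand from position -169, where 0.157% of all windows and 0.338% of the expressed symbols hold it. GCGGAACGG had none in the 29 members and stood in 0.225% of all windows and 0.517% of the expressed symbols.

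**Figure D4:**
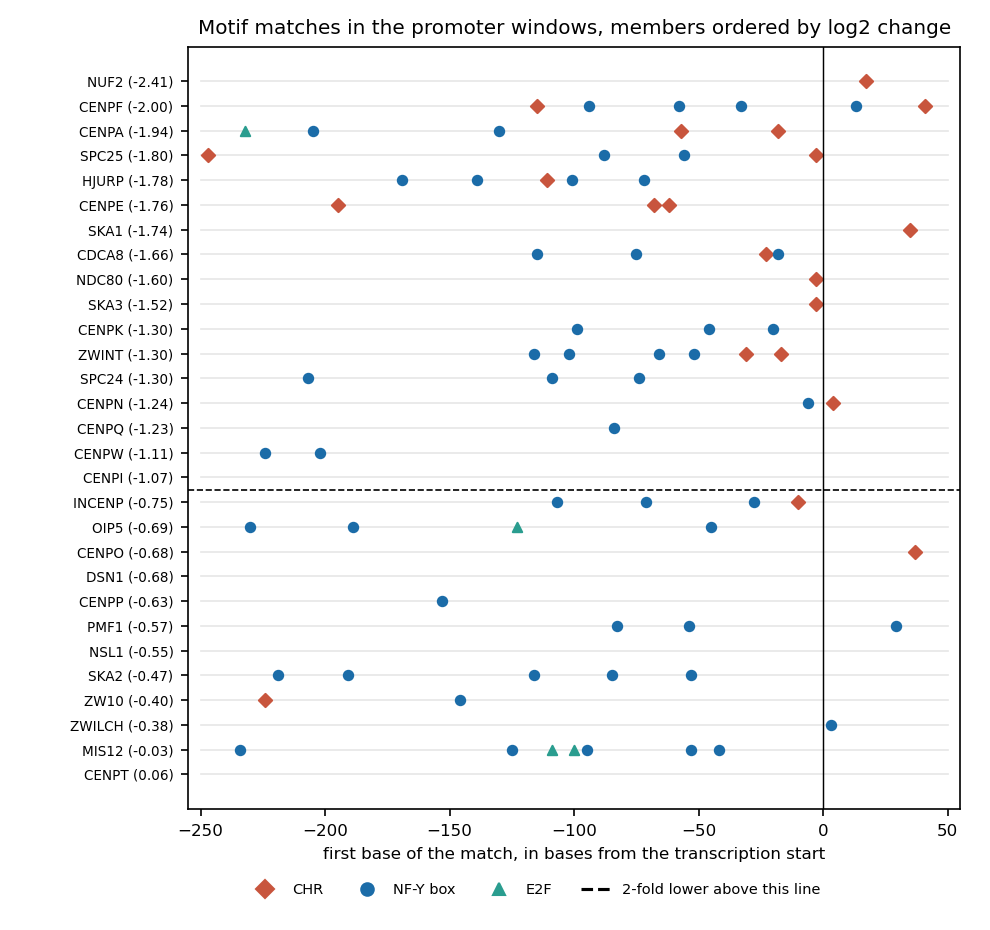
Position of the first base of each motif match (horizontal axis, bases from the transcription start) in the promoter windows of 29 members, ordered from the lowest log2 ratio at the top to the highest (values in brackets). Diamonds are CHR, circles the box bound by NF-Y and triangles E2F; ZWINT and MIS12 have 2 windows each, drawn on 1 row. Most diamonds lie above the dashed line, which separates the 17 members at least 2-fold lower from the other 12.

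Other genes of the centromere, the kinetochore and the spindle checkpoint, came from a list of 28 symbols. Of these, 26 were found, and the others are older symbols of CENPC and SPDL1, which were among the 26. Of the 26, 22 were lower in siPAX9 and 8 were at least 2-fold lower, beside 55.2% and 6.91% of the named loci, and the median log2 ratio was -0.56. The lowest ratios belonged to the checkpoint kinase gene TTK (8.11 and 1.82 FPKM, log2 ratio -2.16), the kinase gene NEK2 (16.0 and 3.62, -2.14) and KIF2C, which encodes a microtubule depolymerase (8.90 and 2.13, -2.07). The highest belonged to MAD1L1 (0.42), CLASP1 (0.36) and NDEL1 (0.13). Besides NDEL1, the genes APITD1, BUB1B and MAD2L1BP were within 1.2-fold, and the rows of APITD1 and BUB1B are shared with other genes. APITD1 and STRA13 encode CENP-S and CENP-X, which bind CENP-T and CENP-W, and their log2 ratios of -0.12 and -0.57 lay between those of CENPW and CENPT. CENPB and CENPC, which bind centromeric DNA and CENP-A nucleosomes, had log2 ratios of -0.38 and -0.31. ITGB3BP, the gene for CENP-R, had -0.98, within the span of CENPQ and CENPO.

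Other cell cycle lists gave values on both sides of the members. Of 14 mitotic kinase genes, 12 were at least 2-fold lower (median log2 ratio -1.55), and of 10 genes for condensin, TOP2A and MKI67, 7 were (median -1.32). Of 23 DNA replication genes, 13 were (median -1.14). The 21 of 35 for the centromere and kinetochore genes, with their median of -1.23, fall between these. The kinase list shares 6 genes with the 28 above, and without them 3 of 20 were at least 2-fold lower. With 1 value per group, a difference between the lists could not be tested.

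**Figure D5:**
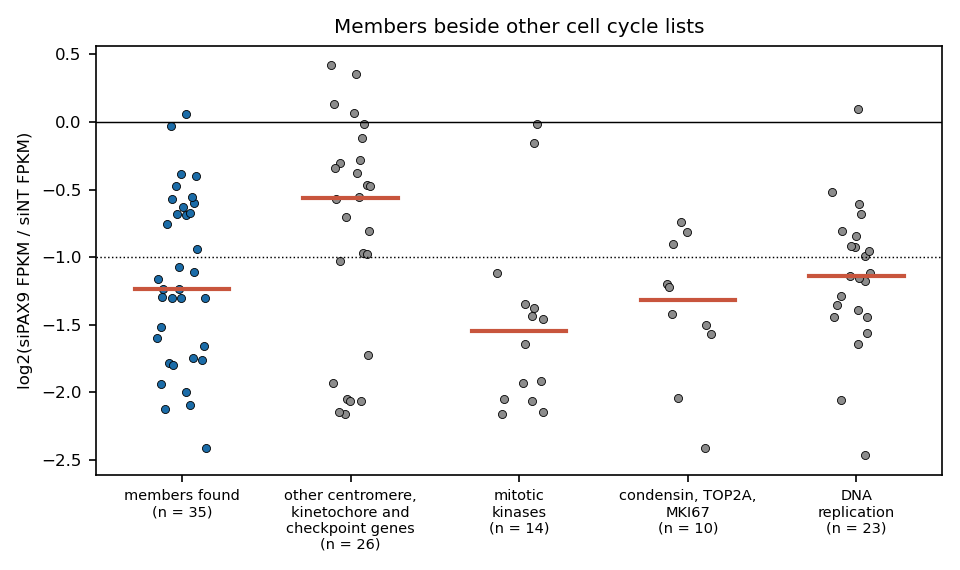
Log2 ratio of siPAX9 FPKM over siNT FPKM for single genes (points) in 5 lists, with the median of each list as a red bar and 2-fold lower as a dotted line. The medians are -1.23 for the members found, -0.56 for other centromere, kinetochore and checkpoint genes, -1.55 for mitotic kinases, -1.32 for the condensin group and -1.14 for DNA replication.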

How the data were processed

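RNA from 3 siNT and 3 siPAX9 samples was sequenced as single-end poly(A)+ libraries. Per the labels and the methods of the study, reads were aligned to UCSC hg19 with Bowtie2 and quantified with Cufflinks in Partek software. The authors deposited 1 table with an FPKM for each locus and group, the 3 samples being combined. Reads per sample, the scaling between libraries and strand use are not in the table, so the precision of an FPKM is unknown. Whether the samples came from separate cultures is not said in the labels.

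The table also holds the authors' fold changes, test statistics and p- and q-values, which were not used. For each member, the row with the highest mean FPKM was kept (each had 1 row), and log2(siPAX9/siNT) was computed with no pseudocount. Called means a fold of at least 2. All named loci with a mean FPKM of at least 1 served as background. All 35 members were marked in the status column as having enough reads. Members, lists and motifs were chosen with earlier results of these data known. All members were named, with PAX9 and, of the related genes, the 3 lowest, the 3 highest and those within 1.2-fold. CENPB, CENPC, ITGB3BP and STRA13, and the comparison of 2 complexes, were added after their values were seen. Ratios and motif searches were tested on simulated data. Python 3.11.15, numpy 2.4.6, pandas 2.3.3, scipy 1.17.1 and matplotlib 3.10.9 were used.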

Additional observations from a re-analysis of the deposited data

How the results depend on the processing

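Each group has 1 value per locus, so no sample could be left out. No paired analysis was possible because the columns hold groups and not single samples. The count of members at least 2-fold lower was 21 after centring on the median, 16 with 1 added to each FPKM and 3 at a fold of 4. The named loci lower by the same rule made up 6.13%, 4.89% and 1.5%. Summing rows, dropping the filter on low values or keeping rows of status OK could not alter the members' values, since each of the 35 had 1 row of status OK and no filter was applied to them, and single-symbol rows left out PMF1 alone. No member was 2-fold higher under any of these settings. The median log2 ratio of -1.23 became -0.92 with 1 added and -1.16 after centring. With other sets of members, tried after seeing the data, the median was -1.29 with the 4 current symbols and -1.30 without the overlapping loci. With no filter, the named loci at least 2-fold lower and higher made up 10.9% and 18.9%. In the motif search, a window of 100 bases before the start left E2F matches in 1 member. Within 50 bases of the start, chosen after seeing the data, 9 members held CCAAT and 0 held E2F.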

Other observations

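Several members lie within 1 kb of another named locus without overlapping it, and these neighbours often had another ratio. The neighbours were looked up after the members' values had been seen. SKA2 and PRR11, a gene of cell cycle progression, lie 59 bases apart. PRR11 was at 14.8 FPKM in siNT and 2.58 in siPAX9, a log2 ratio of -2.52, beside -0.47 for SKA2. OIP5 lies 72 bases from NUSAP1, which encodes a spindle protein and was at 21.9 and 7.39 FPKM, a log2 ratio of -1.56 beside -0.69 for OIP5. In these pairs the neighbour had the lower ratio. OIP5-AS1, 542 bases from OIP5, had a higher ratio than OIP5 (27.4 and 29.2 FPKM, log2 ratio 0.09).

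In other pairs the member had the lower ratio. NDC80 lies 7 bases from METTL4, an RNA and DNA methyltransferase gene at 6.22 and 5.24 FPKM, with log2 ratios of -1.60 for NDC80 and -0.25 for METTL4. CENPK lies 67 bases from PPWD1 (-1.30 and -0.45) and CENPQ 54 bases from MUT (-1.23 and -0.32). KNTC1 and RSRC2, 248 bases apart, had log2 ratios of -1.16 and 0.27. Smaller ratios stood side by side in MIS12 and DERL2 (-0.03 and -0.39), NSL1 and TATDN3 (-0.55 and -0.06), ZWILCH and RPL4 (-0.38 and -0.81), CENPT and EDC4 (0.06 and -0.25) and PMF1 and SLC25A44 (-0.57 and 0.35). With 1 value per group, none of these differences could be tested.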
